A study of Mus musculus with 6 samples.

Results

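Sterol and fatty acid synthesis was followed through 34 genes that encode the enzymes of both pathways and the proteins that control them. They are the mevalonate enzymes, the enzymes from squalene to cholesterol, the fatty acid synthases, desaturases and elongases, the cholesterol carrier Stard4, and SREBP control. All 34 were measured, out of 18193 genes on the array, each by the brightest of the probe sets that name only that gene. The genes were listed by function. In Ebf2-positive cells, 1 member was higher (Scd1) and 4 were lower (Fads2, Idi1, Pmvk and Ebp), and the other 29 did not pass the test. The 5 called are 14.7% of the members, against 24.4% of all genes, of which 10.8% were higher and 13.6% lower.

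Adult wild-type C57BL/6 mice, left untreated, gave the bone marrow cells, which went to RNA uncultured after the sort. There are 6 microarrays, 3 for the Ebf2-positive group and 3 for the Ebf2-negative group. Ebf2 is a transcription factor of immature mesenchymal cells, and both groups were sorted as negative for CD45 (leukocytes), TER119 (red cell lineage) and CD31 (endothelium). RNA came from 1000 or 2000 cells per sample and was amplified in a dual round. The labels leave out how Ebf2 was detected in the sort, which sample had which cell number, the sex of the animals and any pooling of animals. They also do not state that each replicate is its own animal. The p-values therefore reflect the scatter of these samples alone, and that scatter may be technical.

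Cholesterol is built from acetyl-CoA through mevalonate, squalene and lanosterol, and fatty acids from acetyl-CoA through malonyl-CoA. Both pathways are switched on by the SREBP transcription factors, which the escort protein SCAP carries out of the endoplasmic reticulum when sterols are scarce and which INSIG proteins hold back when sterols are plentiful. In bone marrow these pathways supply membrane lipid to dividing blood cell precursors and stored lipid to fat cells of the stroma.

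Before the values, the promoters of the called members that the RefSeq promoter table (build GRCm38.p6) holds are shown, with that of Hmgcs1, because SREBPs act at promoters through a short sterol regulatory element next to CCAAT and GC boxes. Each runs from 250 bases before the gene's start to 50 after it, 5′ to 3′ on the gene's strand. Capitals mark a sterol regulatory element (TCACNCCAC), a CCAAT box (CCAAT), an E-box (CACGTG) or a GC box (GGGCGG) on either strand, so that a CCAAT box on the opposite strand reads ATTGG. Pmvk has a second promoter in the table, with none of these motifs, which is not shown.
Idi1, chr13:8885356-8885655, plus strand: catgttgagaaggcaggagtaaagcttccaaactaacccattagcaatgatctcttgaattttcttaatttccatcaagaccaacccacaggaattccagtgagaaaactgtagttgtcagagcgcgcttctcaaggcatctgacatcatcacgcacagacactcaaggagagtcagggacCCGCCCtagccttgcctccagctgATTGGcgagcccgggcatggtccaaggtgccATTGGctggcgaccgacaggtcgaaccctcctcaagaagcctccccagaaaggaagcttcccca
Pmvk, chr3:89454291-89454590, plus strand: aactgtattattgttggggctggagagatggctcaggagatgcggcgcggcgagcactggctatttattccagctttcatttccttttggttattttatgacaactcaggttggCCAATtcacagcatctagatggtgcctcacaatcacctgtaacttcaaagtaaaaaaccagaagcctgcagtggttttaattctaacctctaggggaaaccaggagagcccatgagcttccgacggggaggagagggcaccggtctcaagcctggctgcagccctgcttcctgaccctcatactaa
Ebp, chrX:8193463-8193762, minus strand: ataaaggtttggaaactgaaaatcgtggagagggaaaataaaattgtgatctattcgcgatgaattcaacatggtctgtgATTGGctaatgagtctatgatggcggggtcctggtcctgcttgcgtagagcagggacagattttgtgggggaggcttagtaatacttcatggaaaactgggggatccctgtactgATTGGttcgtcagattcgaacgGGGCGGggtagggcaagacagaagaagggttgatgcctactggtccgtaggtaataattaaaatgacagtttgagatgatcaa
Fads2, chr19:10101454-10101753, minus strand: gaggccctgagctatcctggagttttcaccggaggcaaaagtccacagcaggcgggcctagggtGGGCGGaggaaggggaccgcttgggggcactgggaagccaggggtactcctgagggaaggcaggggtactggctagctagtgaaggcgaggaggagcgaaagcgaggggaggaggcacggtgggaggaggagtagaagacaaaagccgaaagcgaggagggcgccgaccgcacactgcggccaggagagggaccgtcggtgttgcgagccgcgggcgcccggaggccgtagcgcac
Hmgcs1, chr13:119690101-119690400, plus strand: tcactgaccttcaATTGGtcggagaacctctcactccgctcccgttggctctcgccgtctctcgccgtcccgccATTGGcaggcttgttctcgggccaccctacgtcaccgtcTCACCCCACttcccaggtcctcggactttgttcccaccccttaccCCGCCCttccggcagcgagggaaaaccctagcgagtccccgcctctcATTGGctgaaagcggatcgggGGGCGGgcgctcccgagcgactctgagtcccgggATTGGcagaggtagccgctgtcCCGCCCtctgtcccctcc

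The table held promoters for 27 of the 34 members, 36 promoters in all. It held none for Fdps, Fdft1, Sqle, Stard4, Scd1, Scd2 and Fads1, so these 7 were not searched for motifs. CCAAT boxes were found in 24 of the 36 promoters (66.7%), against 37.4% of all 32851 promoters of the table and 37.4% of the 18109 promoters of genes on the array. Counted by gene, 23 of the 27 members held one in at least 1 promoter (85.2%), against 42.0% of array genes. GC boxes were found in 72.2% of the member promoters, against 35.7% of all promoters and 52.3% of those of array genes. Counted by gene, the GC box shares were 77.8% of the members and 57.3% of array genes. E-boxes were found in 19.4% of the member promoters, against 7.15% of all promoters and 8.72% of those of array genes. The sterol regulatory element in these letters was found in 1 member promoter, that of Hmgcs1, where it began 137 bases before the gene's start, and in 1.24% of all promoters. In 1 member promoter, of Elovl1, a CCAAT box overlapped a GC box. The Idi1 and Ebp promoters each held a pair of CCAAT boxes and a GC box, the Fads2 promoter a GC box alone, and the Pmvk promoter shown a CCAAT box alone.

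All values below are log2 of the RMA signal, a normalized hybridization intensity per probe set, given for replicates 1, 2 and 3 in turn. All differences are Ebf2-positive minus Ebf2-negative, with n = 3 arrays in each group. A gene was called when its adjusted p in limma, with Benjamini-Hochberg adjustment over all 18193 genes, was under 0.05. Levels of different genes are not set against each other, because probe sets differ in how strongly they hybridize.

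The sort and its contents were checked first. Ebf2 had 8.13, 8.80 and 8.04 in Ebf2-positive cells, against 3.10, 4.02 and 3.84 in Ebf2-negative cells. All 7 stromal marker genes were called higher in Ebf2-positive cells, where their mean ran from 12.43 to 12.71, against 8.09 to 9.18 in Ebf2-negative cells. All 9 measured erythroid markers of 10 listed were lower, with a mean of 4.85 to 5.27 in Ebf2-positive and 9.80 to 10.05 in Ebf2-negative cells. All 7 measured cell division genes of 8 listed were also lower, at 3.45 to 4.97 in Ebf2-positive against 9.01 to 9.35 in Ebf2-negative cells, as were 3 of 6 leukocyte genes (5.44 to 6.48 against 7.77 to 8.61). Of the erythroid markers, Rhag, Trim10 and Epb42 averaged 2.07, 3.47 and 3.10 in Ebf2-positive cells, under the median of 3.74 over all probe sets and arrays. Of 5 measured adipocyte markers, 2 were higher, Fabp4 (1.91) and Lpl (1.58). The list mean was 7.11 to 7.98 in Ebf2-positive against 6.59 to 7.31 in Ebf2-negative cells. Adipoq (-1.30), Cidec (0.28) and Pck1 (0.61) were not called, and their groups overlapped. Cidec and Pck1 averaged under 3.74 in both groups. No gene was called among 6 endothelial markers (4.54 to 6.14 against 3.99 to 5.24). Of 5 macrophage markers, 2 were lower, Mrc1 and Cd163 (list mean 2.73 to 4.03 against 3.82 to 4.11). Adgre1 (0.42), Csf1r (-0.49) and Cd68 (-0.0051) were not called. Adgre1, Cd68 and Cd163 averaged under 3.74 in both groups. Of 3 measured Schwann cell markers, 1 was lower, Mbp (-2.89), with a list mean of 5.15 to 6.01 against 5.98 to 6.33. Sox10 (0.54) and S100b (0.88) had positive differences and were not called. The part of these other cells in the differences below was not tested. In sorted bulk samples, fewer cells of a type and less RNA per cell cannot be told apart.

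Of the 34 members, 5 were called (14.7%), against 24.4% of all genes tested. Members called higher were 1 of 34, where 10.8% of all genes were called higher, and members called lower were 4 of 34, where 13.6% of all genes were. The groups did not overlap for 12 members (35.3%), against 43.0% of all genes. Of these, 6 were higher and 6 lower, where 21.8% and 21.2% of all genes were. The median difference over the members was -0.34, against 0.07 over all genes, and it ran from -1.83 to 2.50. Leaving out dim genes, with both group means at or under 3.74, kept 12696 genes. Their median difference was -0.09 and 36.9% of them were called, while the members stayed at -0.34. A difference over 1 in size was measured for 8 members (23.5%), against 31.7% of all genes.

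**Figure D1:**
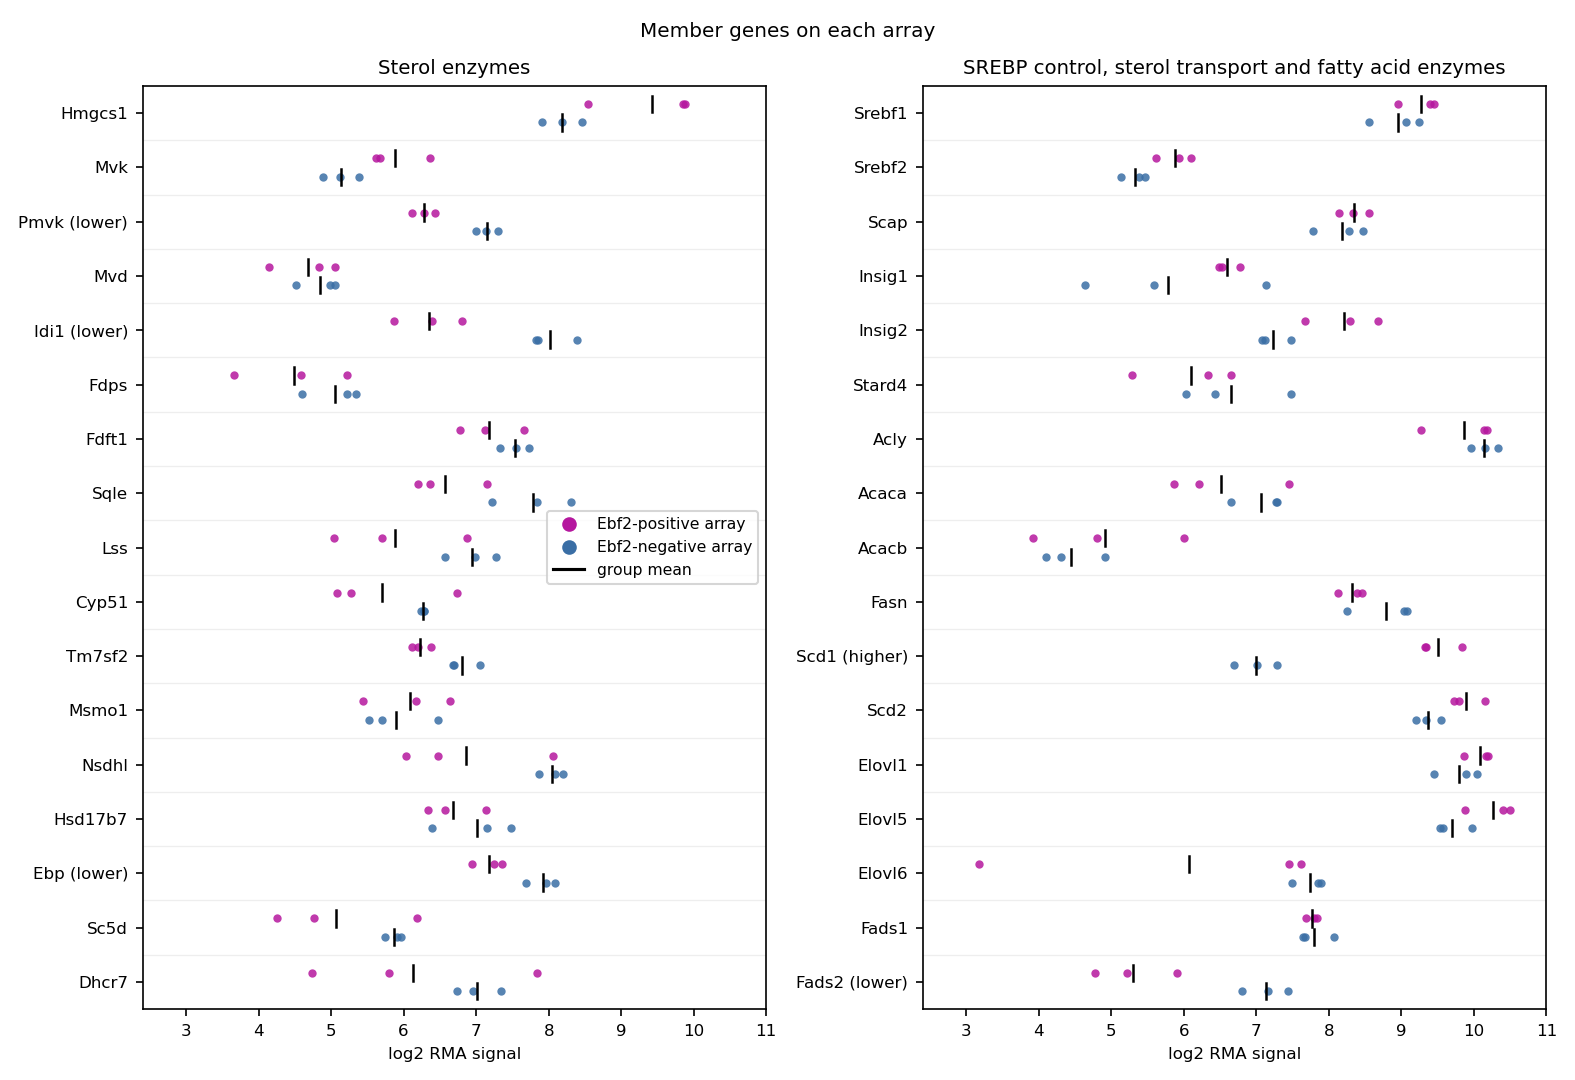
Log2 RMA signal (horizontal axis) of each member gene (rows) on the 3 Ebf2-positive arrays (magenta, upper row of each gene) and the 3 Ebf2-negative arrays (blue, lower row), with group means as black bars. Genes called are marked higher or lower after their name. The groups are well apart for Scd1, Fads2 and Idi1, and the Ebf2-positive points are widely spread for Elovl6 and Dhcr7.

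Desaturation of fatty acids held the largest differences among the members, in opposite directions. Scd1, the stearoyl-CoA desaturase that makes monounsaturated fatty acids such as oleate, had 9.33, 9.84 and 9.33 in Ebf2-positive cells, against 7.29, 7.01 and 6.70 in Ebf2-negative cells. Every Ebf2-positive array was above every Ebf2-negative array by a wide margin. The difference was 2.50 (SE 0.25), or 5.67-fold (limma adjusted p = 0.0013). Its paralogue Scd2, which carries out the same reaction, had 10.16, 9.72 and 9.80 in Ebf2-positive cells, against 9.55, 9.21 and 9.34 in Ebf2-negative cells. The Scd2 groups did not overlap either, but the difference was 0.53, with a 95% interval from 0.02 to 1.03, and it did not pass the test (limma adjusted p = 0.127). Whether Scd1 differed more than Scd2 was not tested.

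Fads2, the desaturase that starts the making of long polyunsaturated fatty acids from dietary precursors, had 5.21, 4.78 and 5.90 in Ebf2-positive cells, against 6.80, 7.43 and 7.16 in Ebf2-negative cells. All 3 Ebf2-positive arrays were lower, and the difference was -1.83 (SE 0.34), a 3.57-fold change (limma adjusted p = 0.0102). Fads1, which acts later in the same route, was nearly level, at 7.80, 7.83 and 7.68 in Ebf2-positive cells, against 8.07, 7.64 and 7.67 in Ebf2-negative cells. Its difference was -0.02, with a 95% interval from -0.51 to 0.46. Whether the genes differed in their change was not tested.

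The elongases, which lengthen fatty acids, gave no call. Elovl1, which acts on very long saturated chains, and Elovl5, which acts on polyunsaturated chains, differed by 0.29 (95% interval -0.27 to 0.84) and 0.56 (-0.03 to 1.16). Elovl6, which turns palmitate into stearate, the substrate of the stearoyl-CoA desaturases, had 3.17, 7.45 and 7.61 in Ebf2-positive cells, against 7.89, 7.49 and 7.85 in Ebf2-negative cells. Ebf2-positive replicate 1 stood alone on this probe set, while replicates 2 and 3 lay close to the Ebf2-negative values. The difference of -1.66 therefore had a wide interval, from -4.45 to 1.12, and it became -0.21 without that array. A second, dimmer Elovl6 probe set had 5.74, 4.37 and 5.85 in Ebf2-positive cells, against 6.10, 6.01 and 6.32 in Ebf2-negative cells, with replicate 2 as the low array instead. Its groups did not overlap, and its difference of -0.82 was not called. The third and dimmest went the other way, at 3.78, 4.70 and 3.04 in Ebf2-positive cells, against 2.44, 2.83 and 3.63 in Ebf2-negative cells. Its groups overlapped, and its difference of 0.87 was not called.

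The enzymes that build the fatty acid chain itself gave no call either. Acly, which makes cytosolic acetyl-CoA from citrate, had 9.27, 10.14 and 10.19 in Ebf2-positive cells, against 10.15, 9.96 and 10.33 in Ebf2-negative cells. Fasn, the fatty acid synthase, had 8.46, 8.13 and 8.38 in Ebf2-positive cells, against 8.26, 9.04 and 9.08 in Ebf2-negative cells. The groups overlapped for both, and their differences were -0.28 (95% interval -0.995 to 0.435) and -0.47 (-1.14 to 0.20). Acaca and Acacb, the acetyl-CoA carboxylases that make malonyl-CoA for synthesis and at the mitochondrial surface, differed by -0.56 and 0.47, with overlapping groups. The intervals of Acaca and Acacb, -1.62 to 0.50 and -0.83 to 1.76, leave room for changes of over 2-fold.

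Of the 17 sterol enzymes, 3 were called (17.6%), all lower in Ebf2-positive cells, where 13.6% of all genes were called lower and 24.4% in either direction. A negative difference was measured for 14 (82.4%), where 44.8% of all genes had one. The share among genes that are not dim was not counted, and their median difference was -0.09. The median difference of the 17 sterol enzymes was -0.58. The mean over the 17 was 6.25, 6.05 and 6.52 on the Ebf2-positive arrays, against 6.84, 6.75 and 6.79 on the Ebf2-negative arrays. This mean was lower on each of the 3 Ebf2-positive arrays than on any Ebf2-negative array.

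The first enzymes of the mevalonate arm had positive differences, and 4 of its 6 members had negative ones. Hmgcs1, the HMG-CoA synthase that condenses acetyl units for mevalonate, had 9.88, 8.54 and 9.85 in Ebf2-positive cells, against 8.46, 7.91 and 8.19 in Ebf2-negative cells. Every Ebf2-positive array was above the Ebf2-negative arrays, although replicate 2 only narrowly. The difference of 1.24 (95% interval 0.27 to 2.21) did not pass (limma adjusted p = 0.0714), and it was 1.68 without Ebf2-positive replicate 2, where it did (limma adjusted p = 0.00731). All 5 Hmgcs1 probe sets had positive differences, from 0.80 to 1.24. Mvk, the mevalonate kinase, had 6.37, 5.61 and 5.68 in Ebf2-positive cells, against 4.89, 5.39 and 5.12 in Ebf2-negative cells. The difference of 0.75 did not pass (limma adjusted p = 0.101).

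Pmvk, the kinase that adds the next phosphate, had 6.43, 6.28 and 6.12 in Ebf2-positive cells, against 7.30, 7.14 and 7.00 in Ebf2-negative cells. The groups were tight and separate, and the difference was -0.87 (SE 0.19, limma adjusted p = 0.0195), although the call was lost when any 1 of the Ebf2-negative arrays was left out (adjusted p up to 0.0707). Mvd, the decarboxylase that follows, was at overlapping levels in the groups (difference -0.17, 95% interval -0.905 to 0.56). Idi1, the isomerase that prepares isoprene units for coupling, had 6.81, 6.39 and 5.86 in Ebf2-positive cells, against 8.39, 7.85 and 7.83 in Ebf2-negative cells. It was lower on every Ebf2-positive array, by -1.67 on average (SE 0.31, 3.17-fold, limma adjusted p = 0.0102). Fdps, which couples those units to farnesyl diphosphate, differed by -0.56, with overlapping groups and an interval from -1.60 to 0.47.

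**Figure D2:**
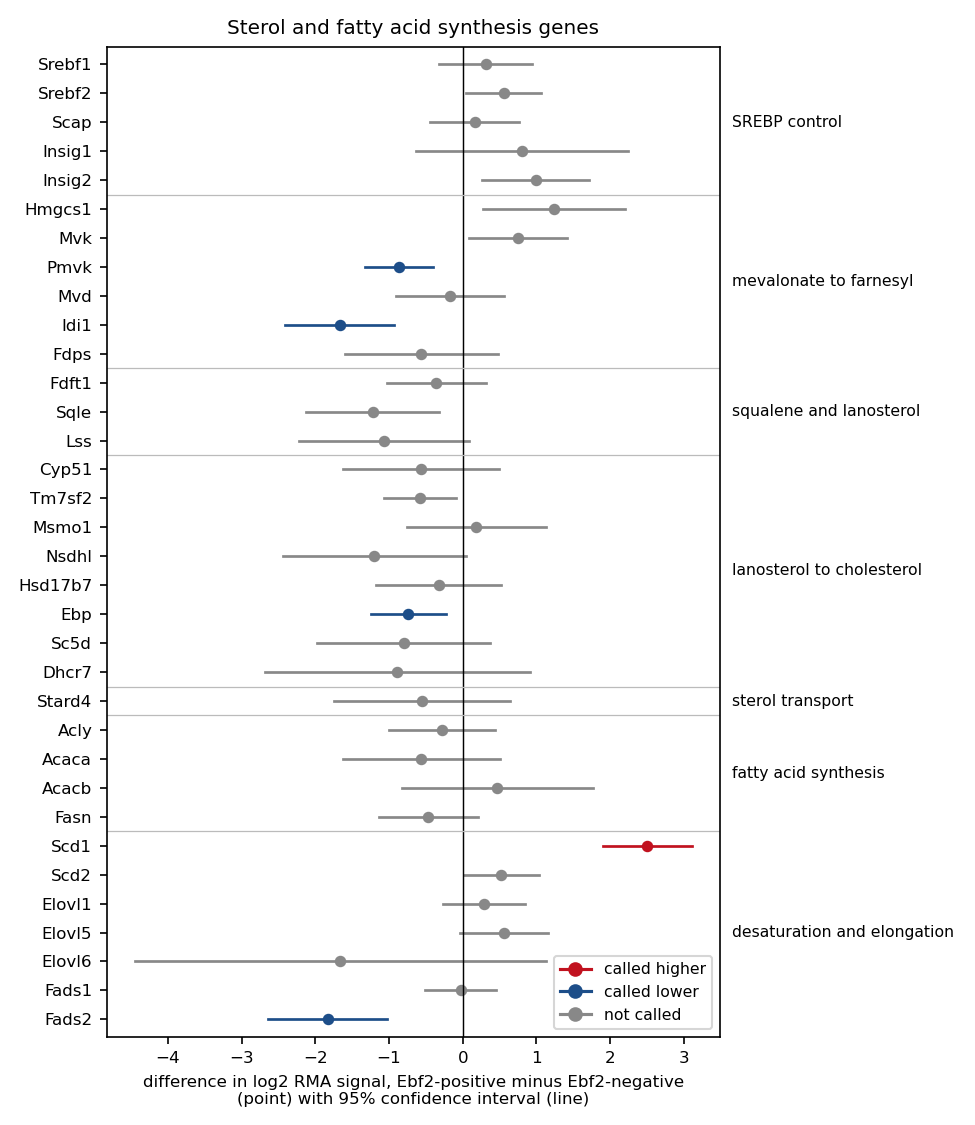
Difference in log2 RMA signal, Ebf2-positive minus Ebf2-negative (horizontal axis), for the 34 members grouped by role, as points with 95% confidence intervals from the limma fit. Scd1 (2.50) is the member called higher (red), and Pmvk, Idi1, Ebp and Fads2 are called lower (blue). The 5 SREBP control genes are all right of 0 without passing (left of 0 with poly-A centring). Of all genes, 55.2% have a positive difference. Elovl6 and Dhcr7 have the widest intervals.

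The enzymes of squalene and lanosterol had negative differences without a call. Sqle, the squalene epoxidase, had 6.36, 6.19 and 7.15 in Ebf2-positive cells, against 8.31, 7.84 and 7.22 in Ebf2-negative cells. The groups did not overlap, but Ebf2-positive replicate 3 and Ebf2-negative replicate 3 nearly met. The difference was -1.22 (95% interval -2.13 to -0.32, limma adjusted p = 0.0607). Lss, which closes the ring to lanosterol, had 5.04, 5.70 and 6.88 in Ebf2-positive cells, against 6.98, 6.57 and 7.28 in Ebf2-negative cells, which made a difference of -1.07. Fdft1, the squalene synthase, differed by -0.36 with overlapping groups.

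From lanosterol to cholesterol, 1 of 8 enzymes was called lower (12.5%), where 13.6% of all genes were, and 7 had negative differences (87.5%), where 44.8% of all genes did. Ebp, the sterol isomerase, had 7.35, 7.24 and 6.94 in Ebf2-positive cells, against 7.97, 8.09 and 7.69 in Ebf2-negative cells. Its difference of -0.74 (SE 0.21) passed narrowly (limma adjusted p = 0.0488), and the call was lost on leaving out any array of the 6 (adjusted p from 0.0562 to 0.155). Tm7sf2, a sterol reductase, was also lower on every Ebf2-positive array, at 6.19, 6.38 and 6.11 against 7.06, 6.69 and 6.68 in Ebf2-negative cells, but its difference of -0.58 did not pass (limma adjusted p = 0.0863).

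Several of these late enzymes varied far more among the Ebf2-positive arrays than among the Ebf2-negative arrays. Dhcr7, the reductase of the last step, had 4.74, 5.79 and 7.84 in Ebf2-positive cells, against 6.74, 6.96 and 7.34 in Ebf2-negative cells. Cyp51, the lanosterol demethylase, had 5.27, 5.09 and 6.73 in Ebf2-positive cells, against 6.28, 6.23 and 6.27 in Ebf2-negative cells. For both, Ebf2-positive replicate 3 was the high array and lay above every Ebf2-negative array. Nsdhl, a dehydrogenase that helps to remove methyl groups, had 6.03, 8.06 and 6.47 in Ebf2-positive cells, against 8.09, 8.20 and 7.87 in Ebf2-negative cells, with replicate 2 high. Sc5d, a sterol desaturase, had 6.19, 4.25 and 4.77 in Ebf2-positive cells, against 5.74, 5.97 and 5.91 in Ebf2-negative cells, with replicate 1 high. The high array thus differed from gene to gene. Msmo1, a methyl sterol oxidase, and Hsd17b7, a keto reductase, differed by 0.18 and -0.32 with overlapping groups.

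The array left out therefore decided some calls. Without Ebf2-positive replicate 3, 7 members were called lower in place of 4, where 13.0% of all genes were called lower: Idi1, Pmvk and Fads2 with Sqle (-1.51), Lss (-1.57), Cyp51 (-1.09) and Dhcr7 (-1.74). Other omissions made these differences smaller: Dhcr7 was at -0.19 and Lss at -0.65 without Ebf2-positive replicate 1, Cyp51 at -0.26 without Ebf2-positive replicate 2, and Sqle at -0.96 without Ebf2-negative replicate 1. Without Ebf2-positive replicate 2, Nsdhl was called lower (-1.80), and without Ebf2-positive replicate 1, Sc5d was (-1.36), where 13.6% and 12.2% of all genes were called lower. By contrast, Nsdhl was at -0.78 without replicate 1 and Sc5d at -0.39 without replicate 2. Without Ebf2-negative replicates 1, 2 or 3, the members called lower were 2, Idi1 and Fads2, where 8.72%, 9.11% and 7.67% of all genes were. Members called higher numbered 2 without Ebf2-positive replicate 1 (Scd1 and Insig2), Ebf2-positive replicate 2 (Scd1 and Hmgcs1) or Ebf2-negative replicate 1 (Scd1 and Insig1), where 10.3%, 10.3% and 7.61% of all genes were called higher. Scd1 alone was called higher without Ebf2-positive replicate 3 or Ebf2-negative replicates 2 or 3, where 10.0%, 9.00% and 7.11% of all genes were. Scd1, Idi1 and Fads2 were called with every array left out in turn. Over the 34 members, the standard deviation was larger in the Ebf2-positive group for 23 (67.6%), and the same held for 67.8% of all genes. Among the 17 sterol enzymes it was larger in that group for 14 (82.4%).

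**Figure D3:**
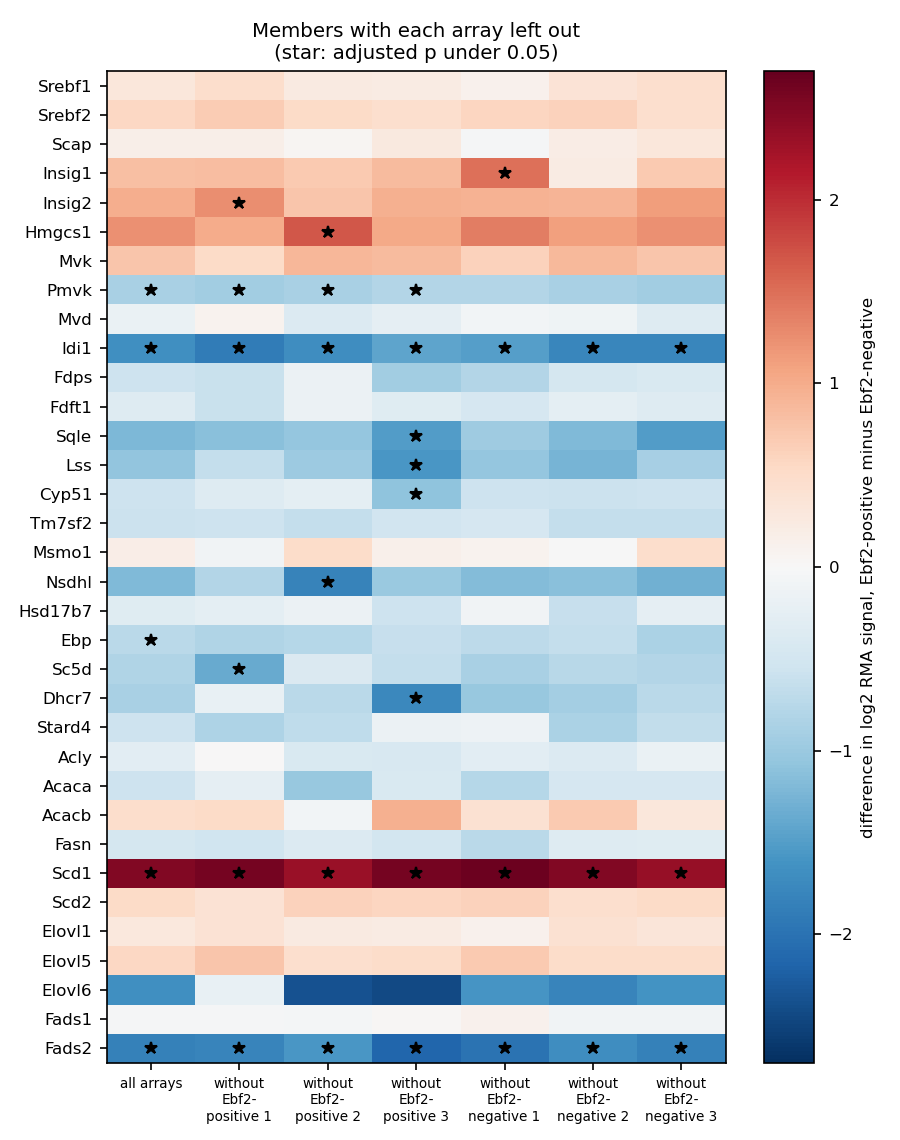
Difference in log2 RMA signal, Ebf2-positive minus Ebf2-negative (colour, red positive and blue negative), for each member (rows) with all 6 arrays and with each array left out (columns), where a star marks an adjusted p under 0.05. Scd1, Idi1 and Fads2 carry a star in every column, Ebp in the first alone, and Sqle, Lss, Cyp51 and Dhcr7 without Ebf2-positive replicate 3.

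The genes that control SREBP showed no call. All 5 had positive differences, where 55.2% of all genes had one, and these turned negative with centring on the poly-A controls. Srebf1, which encodes the SREBP that mainly drives fatty acid genes, had 8.96, 9.39 and 9.46 in Ebf2-positive cells, against 8.56, 9.07 and 9.24 in Ebf2-negative cells. The groups overlapped, with a difference of 0.31 (95% interval -0.31 to 0.94). Srebf2, which encodes the SREBP that mainly drives sterol genes, had 5.61, 5.94 and 6.10 in Ebf2-positive cells, against 5.39, 5.47 and 5.14 in Ebf2-negative cells. Its groups did not overlap, but the difference of 0.55 (0.04 to 1.07) did not pass (limma adjusted p = 0.115). Scap had 8.33, 8.56 and 8.13 in Ebf2-positive cells, against 7.79, 8.28 and 8.47 in Ebf2-negative cells, which differed by 0.16 (-0.44 to 0.76). Without Ebf2-negative replicate 1 the Scap difference was -0.0362.

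The INSIG genes differed in how steady they were. Insig1, itself switched on by SREBPs, had 6.52, 6.78 and 6.48 in Ebf2-positive cells, against 7.13, 4.63 and 5.60 in Ebf2-negative cells. Here the Ebf2-negative arrays were the scattered ones, and the difference of 0.81 had an interval from -0.64 to 2.25. Without Ebf2-negative replicate 1 it was 1.48 and passed (limma adjusted p = 0.0454), and without Ebf2-negative replicate 2 it was 0.23 (adjusted p = 0.795). Insig2 had 7.67, 8.68 and 8.29 in Ebf2-positive cells, against 7.12, 7.07 and 7.48 in Ebf2-negative cells. Its groups did not overlap, and the difference was 0.99 (0.26 to 1.71), just short of the threshold (limma adjusted p = 0.0585) and past it without Ebf2-positive replicate 1 (1.26, adjusted p = 0.0205).

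Where a member had several probe sets, they did not always agree. The 34 members had 80 probe sets, of which 10 (12.5%) were called in a limma fit over all 45037 probe sets that are not controls, where 15.1% were called. Of the 10, 2 were higher, where 6.39% of all probe sets were, and 8 lower, where 8.76% were. Of the 25 members with several probe sets, 15 had all differences in 1 direction and 10 had both signs. All 3 Fads2 probe sets were called lower (-1.83, -1.66 and -2.48), as were both Idi1 probe sets (-1.67 and -1.92). The second Scd1 probe set, near the median of all probe sets, had 4.18, 4.07 and 4.09 in Ebf2-positive cells, against 3.67, 3.58 and 3.60 in Ebf2-negative cells, which differed by 0.50 (limma adjusted p = 0.0821 over probe sets).

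Stard4, which carries cholesterol between membranes, showed the widest disagreement. Its brightest probe set, 1455011_at, had 6.66, 6.34 and 5.29 in Ebf2-positive cells, against 7.48, 6.03 and 6.44 in Ebf2-negative cells (difference -0.55, not called). Another, 1429240_at, differed by -0.23. The remaining probe set, 1429239_a_at, had 2.93, 2.42 and 2.96 in Ebf2-positive cells, against 7.76, 7.06 and 7.28 in Ebf2-negative cells. That was a measured difference of -4.59 (SE 0.26, limma adjusted p = 0.000668 over probe sets). Its Ebf2-positive values lie under 3.74, the median over all probe sets and arrays, so no exact fold is given. Which transcripts these probe sets detect was not analysed here. With the mean of the probe sets in place of the brightest, Stard4 was called lower.

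Single probe sets of other members also departed from the rest. A dim Hsd17b7 probe set had 3.53, 3.06 and 3.42 in Ebf2-positive cells, against 4.11, 4.37 and 5.05 in Ebf2-negative cells, and was called lower (-1.17, limma adjusted p = 0.0455 over probe sets), while its other 3 probe sets differed by -0.32 to -0.01. Of the 3 Insig2 probe sets, the one used above differed by 0.99, and another, 1417982_at, by 0.09 with overlapping groups. The third, 1417981_at, was called higher (0.73, limma adjusted p = 0.0402 over probe sets), at 8.06, 8.25 and 7.88 in Ebf2-positive cells, against 7.24, 7.42 and 7.34 in Ebf2-negative cells. A second Cyp51 probe set had 1.94, 3.21 and 5.72 in Ebf2-positive cells, against 6.46, 5.96 and 6.01 in Ebf2-negative cells, again with Ebf2-positive replicate 3 high (difference -2.52, not called). Ebp and Pmvk, both called lower as genes, have 1 probe set each, and over all probe sets Ebp did not pass (limma adjusted p = 0.0600).

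**Figure D4:**
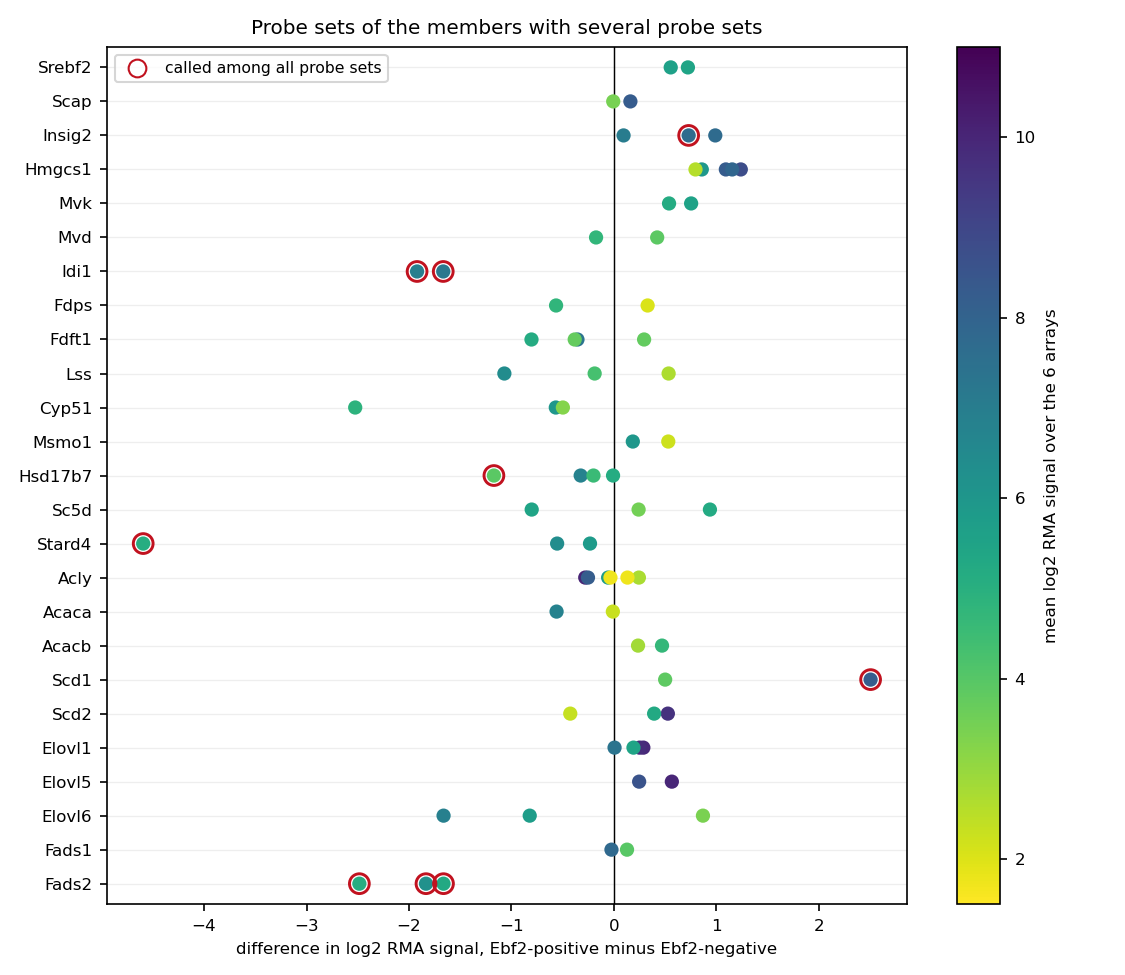
Difference in log2 RMA signal, Ebf2-positive minus Ebf2-negative (horizontal axis), for every probe set of the 25 members with several, coloured by mean log2 RMA signal over the 6 arrays, with a red ring around those called among all probe sets. The probe sets of Fads2 and Idi1 lie together, and Stard4 has 1 probe set at -4.59 far from its other 2.

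Genes around the pathway were read from a list of 40, of which 35 were measured, covering acetyl-CoA supply, acyl-CoA synthesis, SREBP processing and sterol uptake, export and oxidation. Of the 35, 5 were called higher and 5 lower (28.6%), close to the 24.4% of all genes. Their median difference was 0.15. Among genes of substrate supply, Slc25a1, the mitochondrial citrate carrier, had 6.26, 5.80 and 5.49 in Ebf2-positive cells, against 7.58, 8.44 and 8.17 in Ebf2-negative cells (difference -2.21, limma adjusted p = 0.00407). Acss2, which makes acetyl-CoA from acetate, had 6.69, 6.73 and 6.53 in Ebf2-positive cells, against 8.64, 8.21 and 9.31 in Ebf2-negative cells (-2.08, limma adjusted p = 0.00461). Both were lower on every Ebf2-positive array, whereas Acly, a member that makes the same acetyl-CoA from the exported citrate, overlapped between the groups. Acsl5, which joins fatty acids to CoA, was lower by -2.39, and Me1, the malic enzyme that supplies NADPH, was higher by 1.04. Me1 had 3.78 and 3.80 on Ebf2-negative replicates 2 and 3, close to 3.74, the median over all probe sets and arrays.

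Genes that move or oxidize sterol were called in both directions. Cyp27a1, a mitochondrial sterol hydroxylase, had 7.25, 8.60 and 6.99 in Ebf2-positive cells, against 4.63, 3.95 and 3.92 in Ebf2-negative cells (3.45, limma adjusted p = 0.00342). Its Ebf2-negative replicates 2 and 3 lay close to 3.74, the median over all probe sets and arrays, so no exact fold is given. Vldlr, a lipoprotein receptor, had 7.78, 7.30 and 7.19 in Ebf2-positive cells, against 4.96, 4.98 and 5.23 in Ebf2-negative cells (2.37, limma adjusted p = 0.00114). Abca1, the exporter of cholesterol to lipoprotein, had 8.31, 8.19 and 8.61 in Ebf2-positive cells, against 5.85, 6.70 and 5.87 in Ebf2-negative cells (2.23, limma adjusted p = 0.00317). None of these 3 had overlapping groups. Scarb1, the receptor for high-density lipoprotein, went the other way, at 7.30, 8.11 and 7.56 in Ebf2-positive cells, against 9.40, 9.17 and 9.41 in Ebf2-negative cells (-1.67, limma adjusted p = 0.00549). The remaining called genes were Mylip, a ubiquitin ligase that removes lipoprotein receptors (1.04, named after its value was seen), and Rnf139, a ubiquitin ligase of the endoplasmic reticulum (-1.59). Me1, Mylip and Rnf139 were called with only 2, 2 and 1 of the 6 arrays left out in turn, and the other 7 with each of the 6. The proteases that release SREBP, Mbtps1 and Mbtps2, differed by 0.69 and 0.31 and were not called.

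**Figure D5:**
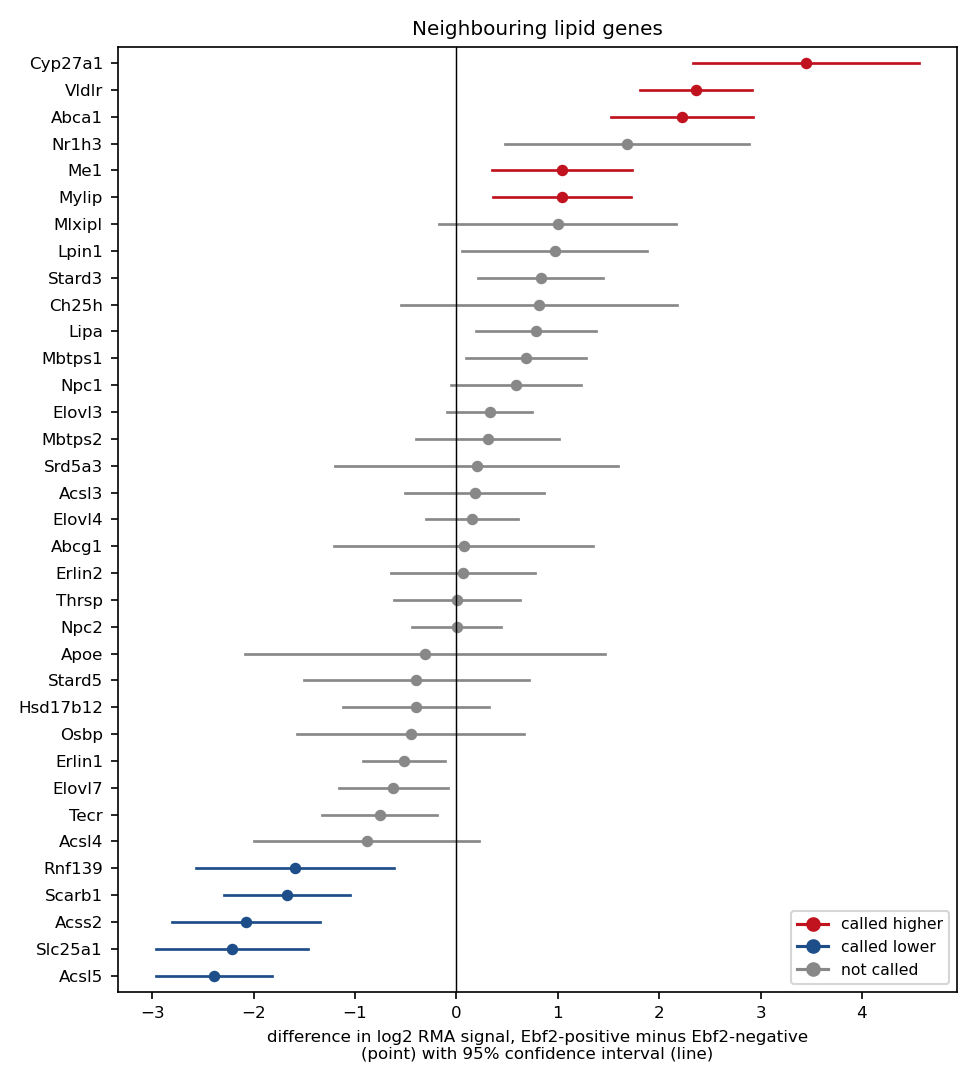
Difference in log2 RMA signal, Ebf2-positive minus Ebf2-negative (horizontal axis), for the 35 measured neighbouring lipid genes, sorted by difference, as points with 95% confidence intervals. Cyp27a1, Vldlr, Abca1, Me1 and Mylip were called higher (red), and Acsl5, Slc25a1, Acss2, Scarb1 and Rnf139 lower (blue).

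All these differences are relative to the other genes on an array. The array's 24 poly-A control probe sets, which detect transcripts meant to be added to RNA before labelling, averaged 12.16, 12.23 and 12.58 on the Ebf2-positive arrays, against 10.31, 8.70 and 10.52 on the Ebf2-negative arrays. Centring each array on them moved every difference by -2.48, so that Scd1 was at 0.03 and no longer called (limma adjusted p = 0.975), Abca1 and Vldlr turned to -0.25 and -0.11, and 31 of 34 members were called lower, where 85.7% of all genes were called lower, 1.25% higher and 87.0% in either direction. On that scale 1.43% of all called genes were higher, against 44.3% before.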

How the data were processed

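RNA of 6 sorted cell samples was measured on Affymetrix MOE430_2 arrays. The deposited intensity values, 1 per probe set and array, were made by the authors with RMA (background correction, quantile normalization, summary per probe set), per the submitters' processing notes. The range of these values is that of a linear scale, so they were put on a log2 scale for every test. Quantile normalization hides differences in total RNA, and dual-round amplification of so little RNA can scatter weakly expressed genes. With 3 arrays per group, precision is limited by their number.

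Of 45101 probe sets, 64 controls were left out. GEO's array annotation names a single gene for 34945, several for 932 and none for 9160. Entrez identifiers of 34741 were found in a RefSeq table (GRCm38.p6), which changed 0 symbols. Each of 18193 genes was represented by its probe set with the highest mean. The comparison used lmFit and eBayes of limma 3.58.1, run in R 4.3.3 (two-sided, Benjamini-Hochberg over all genes, threshold 0.05). Intervals are the fit's 95% intervals. The members, the lists and the alternatives were chosen with earlier results of these data known.

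Named were all members, Ebf2, and of the neighbouring list up to 4 called genes with the largest difference in each direction, plus those stated. Rnf139 and Mylip lie outside that rule and were named after their values were seen. Alternatives were other scalings, dim-gene filters, probe set choices, variance models, a minimum difference of 1 (treat), a replicate block, and leaving out each array. The replicate numbers were not taken to pair the samples, and whether they do is not known. Protein sequences were not used here. Plots came from matplotlib 3.10.9 (Python 3.11.15).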

Additional observations from a re-analysis of the deposited data

How the results depend on the processing

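The calls of Scd1, Idi1 and Fads2 each held in 18 of 19 alternatives. Scd1 lost its call with centring on the poly-A controls, and Idi1 and Fads2 with a minimum difference of 1. The call of Pmvk held in 12 of the 18 alternatives that gave it a value, and that of Ebp in only 3 of 19. The cause of the other changes was not tested. The count of genes called, 4430, became 15823 with poly-A centring and 1433 with the minimum difference, and lay between 2690 and 4348 with 1 array left out. In brackets are the shares of all genes called the same way. Members called higher, 1, became 3 with a further quantile normalization (11.6%), 0 with poly-A centring (1.25%), and 2 with centring on the 75th percentile (12.2%), with probe sets averaged per gene (10.9%), without _x_at, _s_at and _a_at probe sets (9.52%), with array weights (10.8%) and with the replicate block (10.4%). With 1 array left out they were 1 to 2. Members called lower, 4, became 31 with poly-A centring (85.7%), 0 with the minimum difference (3.62%), and 2 with further quantile normalization (11.2%), without _x_at, _s_at and _a_at probe sets (11.9%) or with the trended and robust variance (13.2%). With 1 array left out they were 2 to 7. Leaving out those probe sets also left Srebf1, Pmvk and Elovl1 without a value. The median difference over the members was -0.34, against 0.07 over all genes. With further quantile normalization it became -0.17, against 0.03 over all genes, and with poly-A centring -2.82, against -2.41. With the mean of probe sets it was -0.0797, against 0.07 over all genes. With the most variable probe set it was -0.0916, against 0.08.

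Directions of uncalled members turned in places. With poly-A centring these were Srebf1 (-2.16), Srebf2 (-1.93), Scap (-2.32), Insig1 (-1.67), Insig2 (-1.49), Hmgcs1 (-1.24), Mvk (-1.73), Msmo1 (-2.30), Acacb (-2.01), Scd2 (-1.95), Elovl1 (-2.19) and Elovl5 (-1.91), and, of the called neighbouring genes, Me1 (-1.44), Mylip (-1.44), Abca1 (-0.25) and Vldlr (-0.11). With the most variable probe set Scap was at -0.007, Lss at 0.53, Sc5d at 0.94 and Fads1 at 0.13, and with the mean of probe sets Mvd was at 0.12, Sc5d at 0.12 and Fads1 at 0.0517. Mvd was at 0.42 without _x_at, _s_at and _a_at probe sets. Insig2, at 0.0938 with the most variable probe set, kept its sign. Fads1 was at 0.20 with further quantile normalization, 0.10 with the 75th percentile and 0.0255 with array weights. With 1 array left out, the differences that crossed 0 were those of Scap (-0.0362 to 0.31), Mvd (-0.37 to 0.0945), Msmo1 (-0.0942 to 0.50), Acly (-0.44 to 0.0159), Acacb (-0.0795 to 0.96) and Fads1 (-0.0991 to 0.11).

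The replicate block left 4219 genes called, and 2 members higher (Hmgcs1 and Scd1) and 3 lower. Deviations of arrays with the same number correlated by 0.06, 0.11 and 0.03, and those with different numbers by -0.10 to 0.04. Ebf2-negative replicate 3 correlated best with another number. The numbers were not taken to pair the samples, but correlations this small cannot settle whether they do.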
